A study of Mus musculus with 6 samples.

Results

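The tenascin, periostin and thrombospondin genes encode matricellular proteins, secreted components of the extracellular matrix that bear on how cells attach, move and respond to growth factors more than on the strength of the tissue. The 10 genes described here are the tenascins Tnn, Tnc, Tnxb and Tnr, the fasciclin-domain genes Postn and Tgfbi, and the thrombospondins Thbs1, Thbs2, Thbs3 and Thbs4. They are 10 of the 58116 rows of the deposited count table, and each symbol matched 1 row. The rows were chosen by gene name. The family itself was picked from earlier results of the same contrast, in which the fold changes and adjusted p-values of Postn and Tnn were known, so what follows describes these libraries and gives no independent evidence of a response.

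Poly(A) RNA was sequenced from salivary glands that came from wild type mice at embryonic day 13.5, a stage at which branching epithelium grows into mesenchyme. In 1 group the glands were given 300 ng/ml of BMP-2, a bone morphogenetic protein that acts on cells through serine/threonine kinase receptors and SMAD transcription factors, and in the other they were given 0 ng/ml. Each group had 3 libraries. The labels give no duration of treatment. They do not say whether replicates are separate litters or cultures, so p-values here reflect only how far the 6 libraries scatter, part of which may be technical. For the BMP-2 group, 2 columns of the table matched the description of 1 sample each, as did all 3 control columns. The remaining column matched no description and was taken as BMP-2 only from its first letter. It is referred to as the unnumbered BMP-2 library.

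Tenascins are large multi-domain glycoproteins laid down around growing epithelia, along tendons and in the nervous system. Periostin and its relative TGFBI carry fasciclin domains and bind collagens and integrins, and in mice periostin also assists the maturation of the collagen cross-linking enzyme lysyl oxidase. Thrombospondins bind calcium and a range of receptors, among them CD36, CD47 and integrins, and THBS1 can activate latent TGF-beta.

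Libraries held 23331703 to 32473558 counts with BMP-2 and 19724383 to 26269855 in controls, and the 10 genes together took 0.231 to 0.297% of the counts with BMP-2 and 0.189 to 0.236% in controls. The labelled tissue showed its markers: all 7 salivary epithelium genes and all 9 mesenchymal fibroblast genes listed were detected and tested. The epithelial sum was 3820 to 4403 CPM with BMP-2 and 5201 to 7404 CPM in controls. Of its genes only the secretory gene Bpifa2 separated the groups, at 829 ± 283 CPM with BMP-2 and 2290 ± 967 CPM in controls (SD, n = 3 each). All 7 epithelial genes had a negative log2 fold change, and none was called. The mesenchymal sum was 4322 to 6707 CPM with BMP-2 and 5123 to 5730 CPM in controls. CPM are read counts scaled by library total and TMM factor. Skeletal muscle transcripts set libraries apart: the 16 muscle genes found summed to 963, 224 and 1031 CPM in BMP-2 replicate 1, BMP-2 replicate 2 and the unnumbered BMP-2 library, against 4.88, 4.86 and 110 CPM in control replicates 1, 2 and 3. All 16 were higher in every BMP-2 library than in every control, and 1 was called. In bulk tissue, more cells of a type and more RNA per cell cannot be told apart.

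Among the 9 members that passed the filter on low counts, Tnn and Postn rose with BMP-2 and none fell (edgeR, quasi-likelihood F-test, adjusted p below 0.05 by the Benjamini-Hochberg method over 17006 genes). Over all genes tested, 0.811% were called higher and 0.911% were called in either direction, which is the background for the 2 of 9, and nothing is read from the excess because the family was picked with these calls known. Tnc, Tnxb, Tgfbi, Thbs1, Thbs2, Thbs3 and Thbs4 were not called, and Tnr had too few counts to be tested. The median log2 fold change of the 9 was 0.87, against -0.0098 over all genes tested. All 3 BMP-2 libraries lay above all 3 controls for Tnn, Postn, Thbs2 and Thbs3, as they did for 8.76% of all genes tested, and all 3 lay below the controls for Thbs1, as they did for 6.73%.

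**Figure D1:**
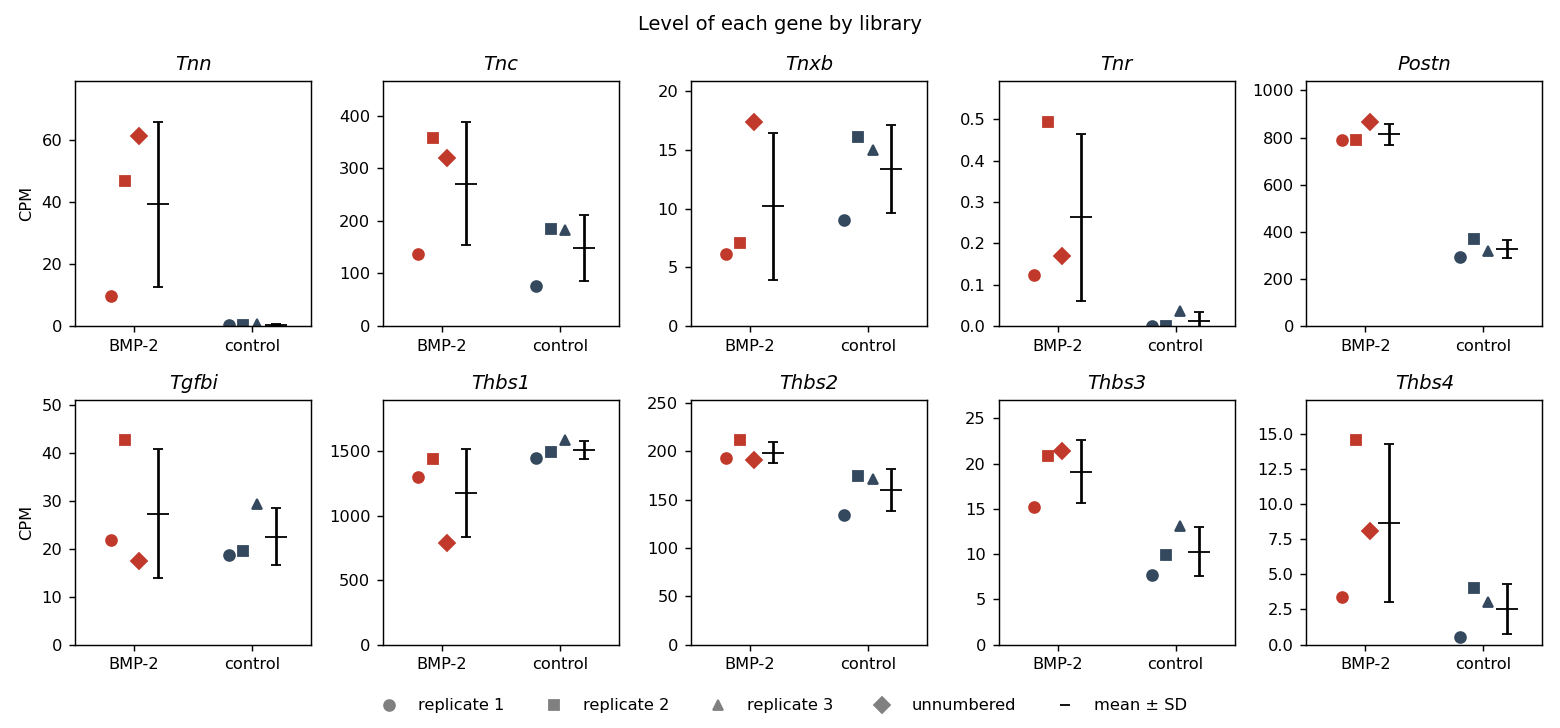
Level of each of the 10 genes in CPM (vertical axes, each from 0) in the 3 BMP-2 libraries at left and the 3 control libraries at right, with the mean and SD of each group as a black bar. The Postn points stand far apart (788 to 867 CPM with BMP-2, 294 to 367 CPM in controls), the Tnn points are spread widely with BMP-2 (9.67 to 61.1 CPM) and lie near 0 in controls, and the Tnc, Tnxb, Tgfbi and Thbs4 points overlap.

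Tnn encodes tenascin-W, a tenascin found in mice in developing bone and its periosteum and in some smooth muscle. The gene lies at chr1:159912599-159981150 on the minus strand (GRCm39, whole gene). It was counted at 9.67 CPM in BMP-2 replicate 1, 46.8 CPM in BMP-2 replicate 2 and 61.1 CPM in the unnumbered BMP-2 library, against 0.199, 0.200 and 0.524 CPM in control replicates 1, 2 and 3. The controls were close to silent, with 22 reads in all against 2889 with BMP-2, and the lowest BMP-2 library was well above the highest control. The control reads alone (4, 4 and 14) were too few for the filter on low counts, which Tnn passed only through the BMP-2 libraries. The treated libraries were themselves far apart, the highest 6.32 times the lowest. Tnn averaged 39.2 ± 26.6 CPM with BMP-2 and 0.308 ± 0.187 CPM in controls (SD, n = 3 each), a log2 fold change of 6.89 (SE 0.959, edgeR adjusted p = 0.0489). This was the rise ranked 6 by size among 17006 genes, while by p-value the gene ranked 151 among the 155 called.

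The Tnn call was therefore close to the threshold, while its change was positive in all 15 alternative analyses, with a log2 fold change from 6.42 to 7.59. The gene was called in 8 of the 15, with the lowest adjusted p by DESeq2 (2.75e-12), and lost the call in 7. With control replicate 1, 2 or 3 left out the gene was no longer called (edgeR adjusted p = 0.209, 0.213 and 0.108). The call also ended when BMP-2 replicate 2 (edgeR adjusted p = 0.0988) or the library with no number (0.0881) was left out, by limma-voom (adjusted p = 0.216) and in edgeR without the low-count filter (adjusted p = 0.123).

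Of the 10 osteoblast and chondrocyte markers listed, 7 were tested and 3 rose, the cartilage matrix genes Acan and Col2a1 and the osterix gene Sp7. The list summed to 266, 376 and 435 CPM in BMP-2 replicate 1, BMP-2 replicate 2 and the unnumbered BMP-2 library, against 265, 261 and 216 CPM in control replicates 1, 2 and 3, so the sum in BMP-2 replicate 1 was that of the highest control. Sox9, which was not called, made up the largest part of the sum, at 166 ± 19.5 CPM with BMP-2 and 172 ± 16.8 CPM in controls (SD, n = 3 each). Runx2 overlapped between the groups and was not called either. Alpl and Col9a1 were not called (edgeR adjusted p = 0.0647 and 0.100). Yet both were higher in every BMP-2 library than in every control, as were 8.76% of all genes tested. Alpl was at 7.43 to 39.1 CPM with BMP-2 and 0.898 to 2.14 CPM in controls (log2 fold change 3.96). Col9a1 was at 59.2 to 89.4 CPM with BMP-2 and 31.6 to 49.8 CPM in controls. Sp7 had 73, 164 and 362 reads in BMP-2 replicate 1, BMP-2 replicate 2 and the unnumbered BMP-2 library, against 0, 1 and 0 in control replicates 1, 2 and 3. Col2a1 was at 20.3, 42.1 and 16.8 CPM in the same BMP-2 libraries, against 0.547, 1.30 and 1.72 CPM in those controls. Acan was at 4.73, 12.8 and 7.93 CPM, against 0.348, 0.200 and 0.0748 CPM. Col2a1 and Acan were thus highest in BMP-2 replicate 2. Like Tnn, Sp7 and Acan passed the filter on low counts only through the BMP-2 libraries. Ibsp, the bone sialoprotein gene, had 1194 reads in the unnumbered BMP-2 library but 1 and 3 in BMP-2 replicates 1 and 2 and 0 in every control, and Matn1 was at 0 in every library. Muscle transcripts summed to 963, 224 and 1031 CPM in BMP-2 replicate 1, BMP-2 replicate 2 and the unnumbered BMP-2 library. Tnn was at 9.67, 46.8 and 61.1 CPM in those libraries. The part of bone, cartilage or muscle cells in the Tnn result was not tested.

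**Figure D2:**
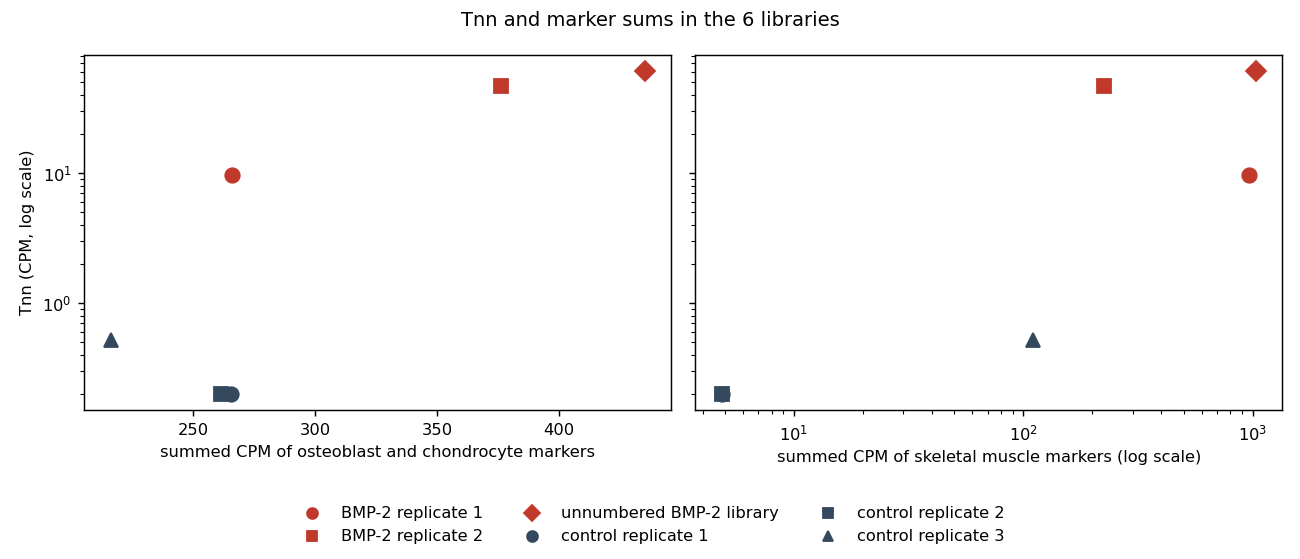
Tnn level (vertical axis, CPM, log scale) against the summed CPM of osteoblast and chondrocyte markers (left) and of skeletal muscle markers (right, log scale) in the 6 libraries, red for BMP-2 and dark blue for control, with a marker shape per replicate. The bone and cartilage sum is 266 to 435 CPM with BMP-2 and 216 to 265 CPM in controls. The muscle sum is 224 to 1031 CPM with BMP-2 and 4.86 to 110 CPM in controls. The part of such cells in the Tnn result was not tested.

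The promoter windows of the 2 called genes are printed to show the sequence at their annotated start sites. The counts are per gene and do not tell which start site was used. In the RefSeq table of GRCm38.p6, which is another build than that of the counts, 9 of the 10 members have a window of 250 bases before to 50 after a start site, in 11 windows; Thbs1 has none there. Windows were searched on both strands for GGCGCC, a GC-rich SMAD element of BMP target genes, which 11.9% of all 32851 windows of the table hold. The general SMAD box CAGAC is held by 49.6%, the TATA box core TATAAA by 13.6% and the RUNX core TGTGGT by 16.8%, and in the windows below no matches overlap. Matches are in capitals. The Tnn window (chr1:160153526-160153825, minus strand) holds none of the 4. Postn has 2 windows, of which the upstream one (chr3:54359017-54359316, plus strand) holds 1 CAGAC and the downstream one (chr3:54360857-54361156, plus strand) holds TATAAA, 26 bases before the start.
Tnn: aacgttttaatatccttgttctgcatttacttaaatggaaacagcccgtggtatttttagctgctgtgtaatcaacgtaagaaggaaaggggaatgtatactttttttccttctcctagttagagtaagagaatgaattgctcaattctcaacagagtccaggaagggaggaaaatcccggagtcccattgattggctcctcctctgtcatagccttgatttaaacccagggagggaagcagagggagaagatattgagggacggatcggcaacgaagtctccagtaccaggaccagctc
Postn, upstream window: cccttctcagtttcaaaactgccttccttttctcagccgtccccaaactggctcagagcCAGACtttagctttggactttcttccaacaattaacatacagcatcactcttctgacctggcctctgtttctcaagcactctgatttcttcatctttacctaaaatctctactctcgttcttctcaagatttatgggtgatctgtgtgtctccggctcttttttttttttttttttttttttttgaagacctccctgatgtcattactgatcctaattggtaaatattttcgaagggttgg
Postn, downstream window: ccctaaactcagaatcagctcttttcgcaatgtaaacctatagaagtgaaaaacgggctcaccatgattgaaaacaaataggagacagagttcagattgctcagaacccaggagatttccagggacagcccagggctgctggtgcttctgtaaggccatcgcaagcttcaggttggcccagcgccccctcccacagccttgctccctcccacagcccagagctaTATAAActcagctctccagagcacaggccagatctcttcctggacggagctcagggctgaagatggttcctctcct

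Over the 11 windows of the family, GGCGCC was found in 1, that of Tgfbi, which was not called. CAGAC was found in 8, TATAAA in 4 and TGTGGT in 0. The 2 Tnc windows overlap and share their TATAAA and 1 CAGAC, which are counted in both. A match is a run of letters and no evidence of binding, and the absence of one says only that these letters are not in the window.

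Tnc encodes tenascin-C, the tenascin of mesenchyme beside growing epithelia, wounds and tendons (chr4:63878022-63965252, GRCm39). Its levels were 137, 357 and 319 CPM in BMP-2 replicate 1, BMP-2 replicate 2 and the unnumbered BMP-2 library, against 75.5, 185 and 183 CPM in control replicates 1, 2 and 3. The groups overlapped, because BMP-2 replicate 1 lay below 2 of the controls. The log2 fold change was 0.87 with an SE of 0.483 (edgeR adjusted p = 0.698), and the gene was not called. Tnc and Tnn differed in scale. Per length, Tnn stood at 0.0905, 0.168 and 0.246 of the Tnc level in BMP-2 replicate 1, BMP-2 replicate 2 and the unnumbered BMP-2 library, and at 0.00339, 0.00139 and 0.00367 in control replicates 1, 2 and 3.

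Tnxb encodes tenascin-X, a tenascin of dermis, tendon and muscle sheaths that in humans is lost in a form of Ehlers-Danlos syndrome (chr17:34879431-34938789). It was at 6.09, 7.12 and 17.4 CPM in BMP-2 replicate 1, BMP-2 replicate 2 and the unnumbered BMP-2 library, and at 9.06, 16.1 and 15.0 CPM in control replicates 1, 2 and 3. The groups overlapped, and the highest and the lowest libraries were both BMP-2 libraries (log2 fold change -0.40, SE 0.422, edgeR adjusted p = 0.919). The size of the Tnxb change depended on single libraries. It was -1.02 without the unnumbered BMP-2 library and -0.13 without BMP-2 replicate 1 (edgeR adjusted p = 0.270 and 0.971). Tnr, the tenascin of the central nervous system (chr1:159351339-159759299), was barely detected, with 4, 12 and 4 reads in the BMP-2 libraries and 0, 0 and 1 in the controls. The ratio of 20 reads to 1 was 16.7 after scaling, with an exact 95% interval from 2.67 to 692 that covers counting error only. Glia and neurons are the cells known for Tnr. The sum of the glial markers was 183 to 269 CPM with BMP-2 and 183 to 237 CPM in controls, and that of the neuronal markers was 42.2 to 101 CPM with BMP-2 and 98.3 to 132 CPM in controls. The part of such cells in the Tnr reads was not tested.

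Postn encodes periostin, named for the periosteum and abundant in collagen-rich mesenchyme (chr3:54268530-54298458, plus strand, GRCm39). Its levels were 788, 788 and 867 CPM in BMP-2 replicate 1, BMP-2 replicate 2 and the unnumbered BMP-2 library, against 294, 367 and 317 CPM in control replicates 1, 2 and 3. The lowest BMP-2 library was above the highest control, and within each group the libraries were close, the highest 1.10 times the lowest with BMP-2 and 1.25 times in controls. The mean was 814 ± 45.5 CPM with BMP-2 and 326 ± 37.5 CPM in controls (SD, n = 3 each), a log2 fold change of 1.32 (SE 0.124, edgeR adjusted p = 0.00778). Postn was the gene of rank 8 by p-value. It was called in every one of the 15 alternatives, with log2 fold changes from 1.25 to 1.41 and adjusted p from 2.41e-20 (DESeq2) to 0.0409. The highest adjusted p was in edgeR with the unnumbered BMP-2 library left out, where the log2 fold change was 1.27. Muscle transcripts, like Postn, were higher in every BMP-2 library (224 to 1031 CPM) than in every control (4.86 to 110 CPM), and their part in the Postn result was not tested.

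Tgfbi encodes the other secreted fasciclin-domain protein, induced by TGF-beta in many cells (chr13:56757336-56787375). It had 22.0, 42.7 and 17.5 CPM in BMP-2 replicate 1, BMP-2 replicate 2 and the unnumbered BMP-2 library, and 18.8, 19.5 and 29.4 CPM in control replicates 1, 2 and 3. The groups overlapped at both ends (log2 fold change 0.28, SE 0.347, edgeR adjusted p = 0.942), and the sign rested on BMP-2 replicate 2, without which the value was -0.19. Per length, the Postn level was 15.1, 7.79 and 20.9 times that of Tgfbi in BMP-2 replicate 1, BMP-2 replicate 2 and the unnumbered BMP-2 library, and 6.60, 7.96 and 4.56 times in control replicates 1, 2 and 3. This ratio also overlapped between the groups.

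**Figure D3:**
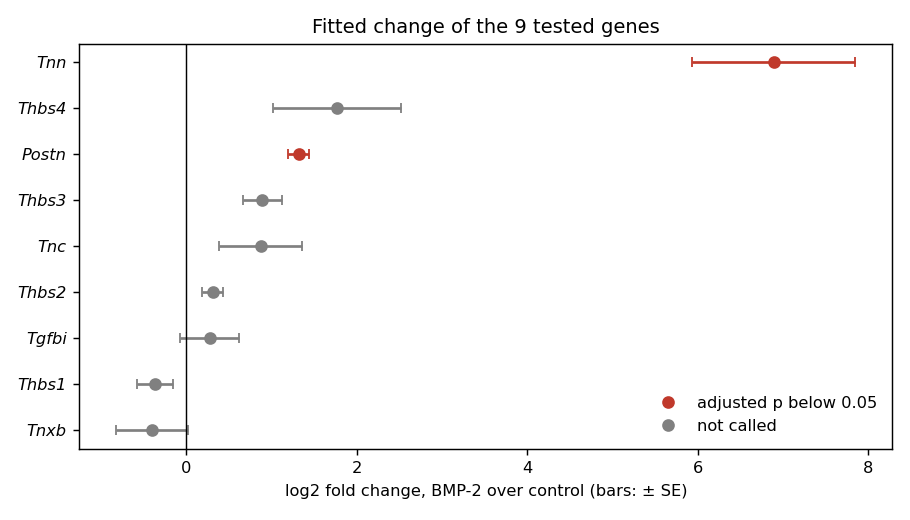
Fitted log2 fold change of BMP-2 over control (horizontal axis) for the 9 tested genes, with the SE as a bar and called genes in red. Tnn (6.89) and Postn (1.32) are called, Postn with the narrower bar (SE 0.124 against 0.959 for Tnn), and Thbs1 (-0.36) and Tnxb (-0.40) lie below 0 without being called.

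Thbs1 encodes thrombospondin-1, an inhibitor of blood vessel growth and an activator of latent TGF-beta, and per length was the most abundant member in every library (chr2:117942357-117957614). It was at 1302, 1439 and 785 CPM in BMP-2 replicate 1, BMP-2 replicate 2 and the unnumbered BMP-2 library, against 1447, 1497 and 1584 CPM in control replicates 1, 2 and 3. Every BMP-2 library was below every control, but BMP-2 replicate 2 was close to control replicate 1, and the unnumbered BMP-2 library stood well below the rest. The log2 fold change was -0.36 (SE 0.213, edgeR adjusted p = 0.707), and -0.14 without the unnumbered BMP-2 library. Platelets and vessels are known sources of Thbs1. Their marker sums were 3.90 to 6.03 CPM with BMP-2 and 4.97 to 6.51 CPM in controls for 6 platelet genes, of which Gp9, Gp1ba and Gp6 were at 0 in all libraries, and 10.5 to 18.1 CPM with BMP-2 and 6.92 to 18.4 CPM in controls for 6 endothelial genes. The 7 smooth muscle and pericyte genes listed summed to 1117, 1303 and 732 CPM in the BMP-2 libraries, in the order above. Their sums in control replicates 1, 2 and 3 were 1009, 882 and 950 CPM. The part of platelets, vessels, smooth muscle or pericytes in the Thbs1 level was not tested.

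Thbs2 encodes thrombospondin-2, a relative of Thbs1 that is made by fibroblasts and also restrains vessel growth (chr17:14885762-14914497). It was at 193, 211 and 191 CPM in BMP-2 replicate 1, BMP-2 replicate 2 and the unnumbered BMP-2 library, against 134, 174 and 171 CPM in control replicates 1, 2 and 3. The groups did not overlap, yet the difference was small and not called (log2 fold change 0.31, SE 0.122, edgeR adjusted p = 0.401). Because Thbs1 lay lower and Thbs2 higher in each BMP-2 library, the ratio of Thbs2 to Thbs1 per length also separated the groups, at 0.126, 0.125 and 0.207 in BMP-2 replicate 1, BMP-2 replicate 2 and the unnumbered BMP-2 library against 0.0790, 0.0991 and 0.0918 in control replicates 1, 2 and 3.

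Thbs3 encodes thrombospondin-3, known from the mouse skeleton, where it affects the timing of bone growth (chr3:89122487-89134144). It was at 15.1, 20.8 and 21.4 CPM in BMP-2 replicate 1, BMP-2 replicate 2 and the unnumbered BMP-2 library, against 7.71, 9.91 and 13.1 CPM in control replicates 1, 2 and 3. The groups did not overlap, but the adjusted p was 0.129 (edgeR, log2 fold change 0.90, SE 0.225), so the gene was not called in the main analysis. DESeq2 called it (adjusted p = 0.00754), as did edgeR without the low-count filter (adjusted p = 0.00423). In the table Mtx1, a mitochondrial import gene on the opposite strand, spans all 11658 bases of Thbs3, so that without strand-aware counting some reads may belong to either gene. Mtx1 averaged 22.8 CPM with BMP-2 and 26.7 CPM in controls and was not called (log2 fold change -0.23, edgeR adjusted p = 0.719). The other rows that overlap a member held at most 33 reads in a group.

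Thbs4 encodes thrombospondin-4, a protein of tendon and muscle attachments (chr13:92888098-92931326). It was at 3.36, 14.5 and 8.06 CPM in BMP-2 replicate 1, BMP-2 replicate 2 and the unnumbered BMP-2 library, against 0.547, 4.01 and 2.99 CPM in control replicates 1, 2 and 3. BMP-2 replicate 1 lay below control replicate 2, so the groups overlapped, and the log2 fold change of 1.77 had a large error (SE 0.750, edgeR adjusted p = 0.498). Muscle sums were also higher with BMP-2 (963, 224 and 1031 CPM in the same order of libraries) than in controls (4.88, 4.86 and 110 CPM), and their part in the Thbs4 levels was not tested. The fifth thrombospondin, Comp, the cartilage oligomeric matrix protein gene, was low, at 1.16 ± 0.722 CPM with BMP-2 and 0.848 ± 0.171 CPM in controls (SD, n = 3 each, edgeR adjusted p = 0.936).

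Set side by side per length of gene, in CPM per kilobase, Thbs1 led the family in both groups, at 194 ± 56.8 with BMP-2 and 249 ± 11.3 in controls (SD, n = 3 each), and Postn came next, at 90.2 ± 5.04 with BMP-2 and 36.1 ± 4.15 in controls. No other member reached the range of these 2 genes in either group. Tnc and Thbs2 formed the next step and overlapped each other in both groups: Tnc was at 34.5 ± 15.0 with BMP-2 and 18.8 ± 7.98 in controls, and Thbs2 at 27.8 ± 1.54 with BMP-2 and 22.4 ± 3.10 in controls. Below them, Tgfbi was at 7.18 ± 3.53 with BMP-2 and 5.92 ± 1.55 in controls.

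The lower members were more crowded with BMP-2 than in controls. In controls Thbs3 (1.91 ± 0.504) was above Tnxb (0.991 ± 0.281) and Thbs4 (0.765 ± 0.541), which overlapped each other, and Tnn (0.0503 ± 0.0306) lay below all of these. With BMP-2 the order was Tnn (6.41 ± 4.34), Thbs3 (3.57 ± 0.644), Thbs4 (2.63 ± 1.70) and Tnxb (0.756 ± 0.463), and every neighbouring pair from Tgfbi to Tnxb overlapped. Tnr was the lowest in every library. Tnn changed place most: it ranked 7, 6 and 5 among the 10 in BMP-2 replicate 1, BMP-2 replicate 2 and the unnumbered BMP-2 library, and 9 in each control.

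As a share of the summed level per length, Thbs1 took 59.9, 55.5 and 41.0% in BMP-2 replicate 1, BMP-2 replicate 2 and the unnumbered BMP-2 library, against 77.7, 71.5 and 73.4% in control replicates 1, 2 and 3. Postn took 24.4, 20.4 and 30.5% in those BMP-2 libraries and 10.6, 11.8 and 9.89% in those controls. Neither share overlapped between the groups, and since shares of a sum are tied to one another, a larger Postn share lowers that of Thbs1.

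**Figure D4:**
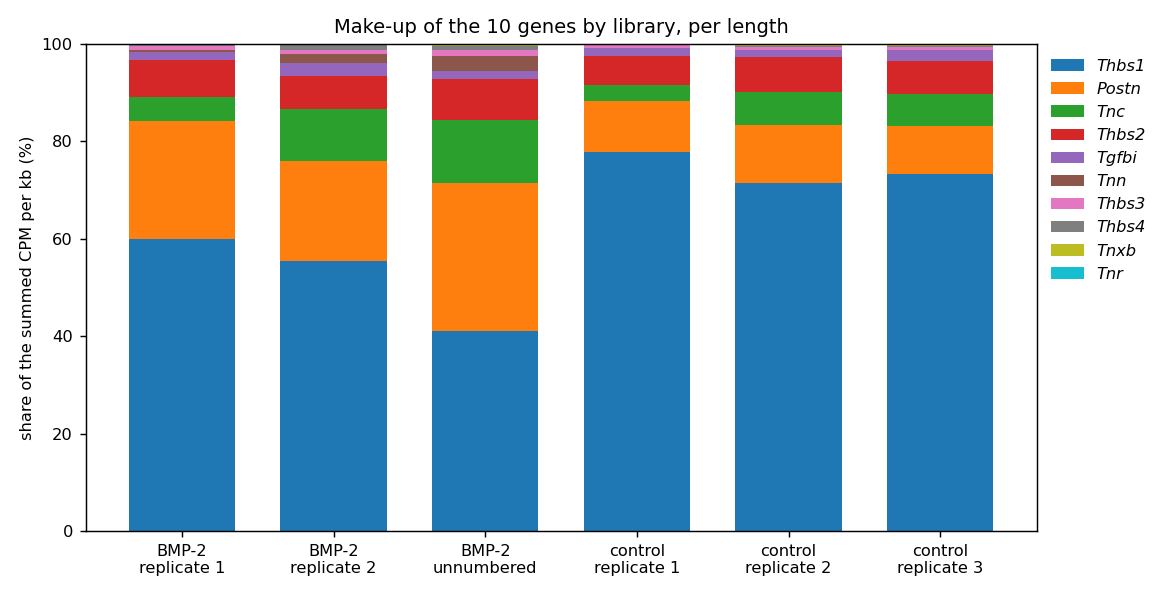
Share of each gene in the summed CPM per kilobase of the 10 genes (vertical axis, percent) in each library, BMP-2 libraries at left and control libraries at right. Thbs1 fills 41.0 to 59.9% of the bar with BMP-2 and 71.5 to 77.7% in controls, and Postn 20.4 to 30.5% with BMP-2 and 9.89 to 11.8% in controls.

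Control replicate 1 was the lowest control for all 9 tested members, though its Tnn level was nearly that of control replicate 2, and BMP-2 replicate 1 was the lowest treated library for 6 of them, all but Tgfbi, Thbs1 and Thbs2. The spread was narrow for Postn and Thbs2 with BMP-2, with a coefficient of variation of 5.59 and 5.52%, and wide for Tnn, Thbs4 and Tnxb, at 67.8, 64.8 and 61.3%. In controls it was 4.57% for Thbs1, the tightest member, and 70.7% for Thbs4.

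The genes most like the called members in profile were found by the root mean square difference of centred log2 CPM over the 6 libraries, among 12563 genes with a mean of at least 2 CPM. A gene can be close to a called member by this measure only with a rise of similar size, so the likeness largely restates the rise. For Tnn these were the homeobox gene Msx2 (difference 0.50), Sp7 (0.61) and the chemokine gene Cxcl14 (0.66). Their log2 fold changes were 6.08, 8.65 and 5.77. Each averaged under 2 CPM in controls and reached the minimum only through the BMP-2 libraries. Msx2 was at 14.2 ± 7.80 CPM with BMP-2 and 0.191 ± 0.166 CPM in controls, and Cxcl14 at 65.6 ± 32.6 CPM with BMP-2 and 1.19 ± 0.163 CPM in controls (SD, n = 3 each). For Postn they were Kctd12, a gene of a receptor-associated protein (0.072), Mreg, the melanoregulin gene (0.096), and the adhesion receptor gene Adgrf4 (0.15). Kctd12 was at 296 ± 18.0 CPM with BMP-2 and 122 ± 5.96 CPM in controls (SD, n = 3 each), and Adgrf4 was not called (edgeR adjusted p = 0.0540). Adgrf4 averaged 4.14 CPM with BMP-2 and 1.48 CPM in controls, so it too reached the minimum only through the BMP-2 libraries.

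In 4 lists of related genes 3 of 68 tested genes were called, or 4.41%, against 0.911% of all genes tested. The lists were written with earlier results of these data known, so nothing is read from the excess. Of 21 other matricellular genes 20 were tested and 1 rose, Fbln5, which encodes the elastic fibre protein fibulin-5, at 63.8 ± 8.32 CPM with BMP-2 and 39.4 ± 0.795 CPM in controls (SD, n = 3 each; log2 fold change 0.69, SE 0.118, edgeR adjusted p = 0.0420). The median over this list was 0.20, and 8 of the 20 had a negative change. Of 15 matrix partners 1 rose, Lox, the lysyl oxidase gene, at 267 ± 41.0 CPM with BMP-2 and 133 ± 24.8 CPM in controls (SD, n = 3 each; log2 fold change 1.01, SE 0.170, edgeR adjusted p = 0.0420). Bmp1, the protease that matures it, was not called (log2 fold change 0.18, edgeR adjusted p = 0.791), and the list had a median of -0.062.

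Among 20 receptors of these proteins none was called by edgeR, 3 had an unadjusted p below 0.05, DESeq2 called 1 and limma-voom 0. Over all 17006 genes tested, 1100 were higher and 621 lower at an unadjusted edgeR p below 0.05. The receptor median was 0.16, and the most abundant receptors, the calreticulin gene Calr and the integrin gene Itgb1, had log2 fold changes of 0.043 and 0.015. Of 13 tendon and connective tissue genes 1 rose, the homeobox gene Prrx2, at 36.9 ± 5.99 CPM with BMP-2 and 15.4 ± 2.84 CPM in controls (SD, n = 3 each; log2 fold change 1.25, SE 0.178, edgeR adjusted p = 0.0253). The tendon genes Scx and Tnmd, which share tissue with Thbs4 and Tnxb, were not called, at 3.79 ± 1.71 and 1.15 ± 0.301 CPM with BMP-2 and 3.47 ± 0.686 and 1.41 ± 0.181 CPM in controls (SD, n = 3 each).

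These 3 calls depended on single libraries. Without control replicate 1 or 2, edgeR called 0 genes of the 4 lists. Without control replicate 3 or BMP-2 replicate 2 it called 1 tendon and connective tissue gene and 0 of the other lists, without the unnumbered BMP-2 library 1 other matricellular gene and 0 of the other lists, and without BMP-2 replicate 1 it called 1 matrix partner, 1 tendon and connective tissue gene and 0 of the rest.

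**Figure D5:**
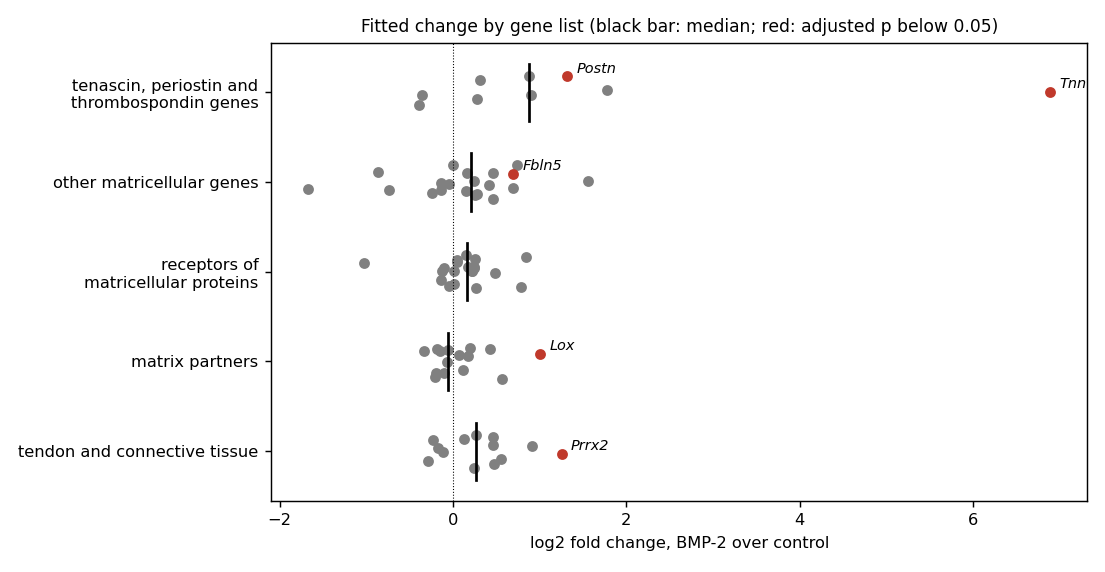
Fitted log2 fold change of BMP-2 over control (horizontal axis) for the tested genes of the family and of the 4 related lists (rows), with a black bar at the median and called genes in red and named. The family median is 0.87, and those of the other lists lie between -0.062 and 0.26, with Fbln5, Lox and Prrx2 called.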

How the data were processed

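The authors deposited raw read counts per gene for 58116 features, without normalization, and a Length column in bases. They used cutadapt 2.9, HISAT2 2.2.0 and featureCounts 2.6.0 with the build GRCm39, per the submitters' processing notes. Strand and multi-mapping settings are not given in the sources used here. Library totals were 19724383 to 32473558. Every pair of libraries within a group differed beyond sampling noise, with a chi-square of 12.7 to 38.2 per degree of freedom.

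Counts were tested with edgeR 4.0.16 (R 4.3.3; quasi-likelihood, robust, TMM factors, default expression filter) over 17006 genes, with DESeq2 1.42.0 and limma 3.58.1 as alternatives. The common biological coefficient of variation was 0.214. The edgeR script was tested on simulated data. An exact two-sided permutation test of 3 libraries against 3 cannot give p under 0.1. Log2 CPM profiles used a prior count of 2.

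Members and lists were chosen with earlier results of these data known. Named genes are all members, from each list the called genes with the lowest adjusted p (at most 4) or, with none called, the 2 most abundant, and the 3 genes most alike in profile to each called member. Other genes (markers and genes set beside a member for their known role, such as Comp, Bmp1, Scx, Tnmd and Mtx1) were named for that role. Acta1 and Tubb3 from the marker lists were not analysed here.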

Additional observations from a re-analysis of the deposited data

How the results depend on the processing

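With 3 libraries a group, counts of calls depended on the analysis. All genes called numbered 155, against 690 by DESeq2, 552 without the low-count filter, 78 by limma-voom and 20 to 151 when each library was left out. Members called numbered 2, against 1 by limma-voom and 1 to 2 when each library was left out; Postn was among them each time. Other matricellular, matrix partner, receptor and tendon genes called were 6, 2, 1 and 2 by DESeq2 and 4, 2, 1 and 2 without the low-count filter. Limma-voom called 0 other matricellular genes and 0 matrix partners, scaling by library totals called 0 matrix partners, and leaving out each library gave 0 to 1 calls in each list but the receptors, which had 0. Tgfbi changed sign without BMP-2 replicate 2, at -0.19, and ranged up to 0.53 with other libraries left out. The causes were not tested. No other member changed sign. A replicate block could use only 4 libraries, whose numbers 1 and 2 both groups share, and called 540 genes, 3 other matricellular genes, 1 receptor gene and 5 members: Tnn, Postn, Tnc (adjusted p = 0.00770), Thbs3 (0.0246) and Thbs4 (0.0141), all edgeR. Nothing in the labels says that the numbers pair libraries. The deviation of replicate 1 from the mean of replicates 1 and 2 correlated between the groups at 0.40 across genes. This compares only 1 difference per group. Tnn and Tnr rest on few control reads, 22 and 1.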
